A study of Homo sapiens with 12 samples.

Results

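The 56 genes described here encode the proteins that copy chromosomal DNA in human cells, from the marking of origins to the joining of Okazaki fragments. They were chosen by name, as the probe sets whose array annotation gives 1 gene symbol that is on a list of replication genes, with the subunits of the single-strand binding protein RPA left out. All 56 genes were found, among 19775 genes that have such a probe set, and they had 103 of the 54675 probe sets. Of these, 99 were bright enough to test, and each gene kept at least 1. Dim probe sets of MCM4, POLE4, RFC1 and TOP2A, 1 each, were left out. A gene is described by its brightest probe set, and 29 genes had more than 1 tested.

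The cells were 293T, a human embryonic kidney line that carries the SV40 large T antigen, transfected transiently with PEI (polyethylenimine) and collected after 48 hours. The 4 hairpin vector arrays came from cells given a plasmid for an artificial hairpin of CU1276, a small RNA that the labels describe as cut from a tRNA. The 4 tRNA vector arrays came from cells given a plasmid with the gene chr1.tRNA68-Gly(GCC), which the labels name as the source of CU1276, and the 4 empty vector arrays from cells given the control plasmid. All groups therefore share the cell line, the transfection and the collection time, and the share of cells that took up a plasmid is not given in the sources used here. The question for these genes is whether either source of CU1276 went with another level of replication transcripts. In such bulk samples, fewer cells with a transcript and less of it per cell cannot be told apart.

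Replication starts in G1 phase, when the origin recognition complex (ORC), CDC6 and CDT1 load the MCM2 to MCM7 helicase onto DNA, a step called licensing that geminin restrains. In S phase the kinase CDC7 with DBF4, together with CDK activity, lets CDC45 and the GINS complex join the helicase, and polymerases alpha, delta and epsilon copy the strands behind it. PCNA is the ring that holds polymerases on DNA, RFC loads it, and FEN1, DNA2, RNase H enzymes and LIG1 process and join the lagging-strand fragments. Many of these genes are transcribed by E2F factors as cells enter S phase, and large T antigen is known to release E2F from the retinoblastoma proteins.

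Because E2F control is what these genes are known for as a group, their promoters were searched in the RefSeq windows of build GRCh38.p14, from 250 bases before to 50 bases after a gene's start. Of the 56 genes, 49 had a window in that table. MCM4, MCM5, GINS4, RECQL4, DONSON, POLD3 and DNA2 did not. An E2F-type motif was taken as TTTGGCGC, TTTGCCGC, TTTCGCGC or TTTCCCGC on either strand, where TTTGGCGC and the reverse of TTTCGCGC overlap within TTTGGCGCGAAA. It was present in 20 of the 49 genes (40.8%), against 3.99% of the 27305 genes with a window. The letters CCAAT, on either strand, were present in 27 of the 49 (55.1%), against 39.7% of all genes. By step the E2F-type letters were found for 4 of 9 licensing genes (ORC3, CDC6, CDT1 and GMNN), 8 of 13 helicase genes (MCM2, MCM3, MCM6, MCM7, GINS1, GINS2, GINS3 and CDC7) and 5 of 11 polymerase genes (POLA1, POLA2, POLE, POLE2 and POLE4). They were also found for RFC3 and PCNA of 6 clamp genes and for LIG1 of 6 genes of fragment processing, and for none of 3 topoisomerase genes or SLBP. Stretches of 60 bases are shown for 6 genes from 4 steps, with the motif in capitals, all upstream of the start and read 5′ to 3′ on the strand of the gene. MCM6 has the overlapping form at 2 places, and the others hold 1 motif in the stretch shown.
MCM6, chr2:135876562-135876621, minus strand: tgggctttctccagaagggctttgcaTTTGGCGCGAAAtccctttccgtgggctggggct
MCM6, chr2:135876500-135876559, minus strand: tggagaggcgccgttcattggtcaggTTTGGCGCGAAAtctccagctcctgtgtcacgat
CDC7, chr1:91501018-91501077, plus strand: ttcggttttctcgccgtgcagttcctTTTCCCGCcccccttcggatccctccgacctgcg
CDT1, chr16:88803728-88803787, plus strand: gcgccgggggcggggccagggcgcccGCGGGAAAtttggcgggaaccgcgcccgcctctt
POLA1, chrX:24693755-24693814, plus strand: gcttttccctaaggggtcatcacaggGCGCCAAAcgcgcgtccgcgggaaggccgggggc
RFC3, chr13:33818068-33818127, plus strand: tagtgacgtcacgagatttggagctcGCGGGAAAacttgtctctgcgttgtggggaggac
PCNA, chr20:5126648-5126707, minus strand: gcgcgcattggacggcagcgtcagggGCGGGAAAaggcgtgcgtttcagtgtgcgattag
A match of letters is a description of the sequence and does not show that a factor binds there.

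Values are MAS5 signals, a brightness per probe set that the authors had scaled on each array, so precision is limited by the 4 arrays per group and no read depth applies. Array medians were 75.9 to 104. Of 7 markers of 293T cells, 6 were above the brightness filter, with VIM, NEFM, NEFL and KRT18 at median signals of 2382 to 21429.9. PAX2 and KRT8 were dimmer, at medians of 139 and 228, and LHX1 was below the filter. Of 5 measured blood cell markers only CD79A passed the filter, at a median of 79.3. All 4 fibroblast markers passed it, where COL1A2, DCN and THY1 had medians of 63.0 to 71.3 and COL1A1 had 782. HBB, the measured erythroid marker, passed it at a median of 74.0. The arrays numbered 1 in the labels stood apart in each group. Their Bacillus RNAs, controls that are spiked in for labelling, had a mean signal of 1726 to 1834, against 331 to 389 on the arrays numbered 2 and 20.01 to 26.13 on those numbered 3 and 4. GAPDH probe sets at the 3′ end gave a signal 1.47 to 1.67 times that at the 5′ end on these arrays, a sign of RNA or labelling quality, against 1.18 to 1.39 on the others.

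No replication gene passed the test between vectors. The limma test with Benjamini-Hochberg adjustment over 32768 probe sets called 0 probe sets (0%) in each of the 3 comparisons, and so 0 of the 99 probe sets of replication genes. The plain test run beside it also called 0. With the replicate number as a block the count over all probe sets was 6 for the hairpin against the tRNA vector, none of them of a replication gene. At an unadjusted p under 0.05, by the brightest probe sets, 0 of the 56 genes passed with the tRNA vector against the empty vector, against 4.26% of the 13952 tested genes. For hairpin against empty vector cells 2 of 56 passed, against 2.74%, both with lower signals (ORC5 and RNASEH2A). For hairpin against tRNA vector cells 3 of 56 passed, against 4.56%, with WDHD1 higher and GMNN and RNASEH2A lower. These shares are near or below the background. Any 2 of the 3 comparisons share the arrays of a vector, so they are not independent of each other.

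The fold changes of the replication genes were small as a group. The median size of the log2 fold change, without its sign, was 0.066 with the tRNA vector against the empty vector, 0.050 with the hairpin vector against the empty vector and 0.081 with the hairpin vector against the tRNA vector, where all tested genes had 0.11, 0.099 and 0.11. The median residual SD of the replication genes was 0.14, against 0.23 for all tested genes. The 95% interval of the fold change lay within 1.5-fold either way for 52, 51 and 50 of the 56 genes in the 3 comparisons, against 61.0%, 62.1% and 61.5% of tested genes. The tested genes reach down to a geometric mean signal of 43.3 and were not matched to the replication genes in brightness. The part of brightness in these differences was not tested. The genes with a wider interval than 1.5-fold were CDT1, GINS4, PRIM2, POLD1, POLD4, POLE3 and RNASEH2B, each in at least 1 comparison. The fit has no term for the replicate number, by which CDT1, POLE3 and RNASEH2B also differed, as described below. In this fit the intervals of the genes named do not limit the difference to 1.5-fold in those comparisons. The widest belonged to POLD4, a small accessory subunit of polymerase delta, whose signal was 174 to 273 with the hairpin vector, 136 to 296 with the tRNA vector and 33.4 to 332 with the empty vector.

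**Figure D1:**
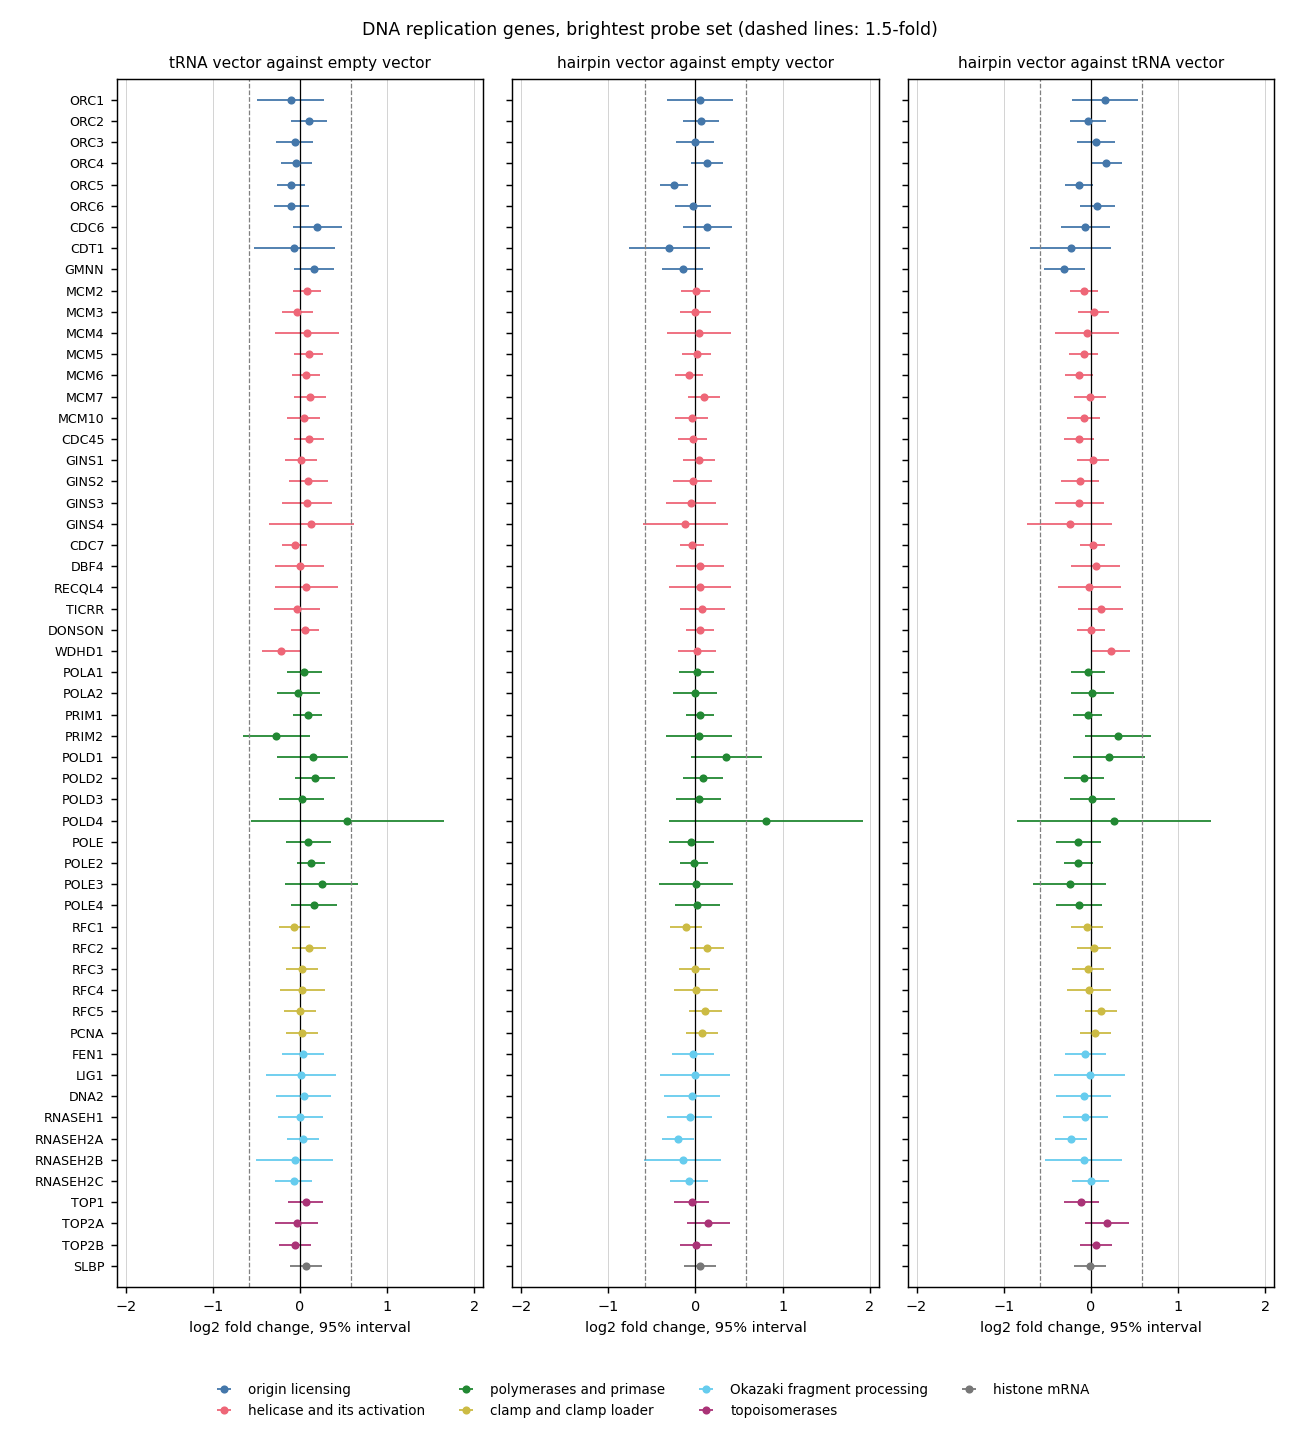
Log2 fold change (horizontal axis) of each of the 56 replication genes (rows, ordered and coloured by step) in the 3 comparisons, as points with 95% limma intervals, and dashed lines at 1.5-fold. Most points lie close to 0 and 52, 51 and 50 intervals stay between the dashed lines, while POLD4 has the widest.

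Counting signs alone, 37 of the 56 log2 fold changes were above 0 with the tRNA vector against the empty vector, against 50.7% of tested genes, and their median was 0.036, against 0.0030 for all tested genes. With the hairpin vector against the empty vector 30 of 56 were above 0, against 51.2%, with a median of 0.0025. With the hairpin vector against the tRNA vector 20 of 56 were above 0, against 50.6%, with a median of -0.034. Between arrays of the same number the tRNA vector was above the empty vector for 35, 30, 32 and 35 of the 56 genes at numbers 1 to 4. The hairpin vector was above the empty vector for 31, 25, 35 and 28, and above the tRNA vector for 31, 23, 27 and 22. Without the 3 arrays numbered 1, the counts above 0 were 31, 25 and 24 of 56, and the median for the hairpin vector against the empty vector was -0.020. No p is given for such counts, since the genes are not replicates.

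Origin licensing comprised 9 genes, of which 3 had a log2 fold change above 0 with the tRNA vector against the empty vector, 4 with the hairpin vector against the empty vector and 4 with the hairpin vector against the tRNA vector. Over 22 other settings, which changed the processing or left arrays out, these counts ranged over 3 to 5, 3 to 6 and 3 to 5. ORC5, a subunit of the origin recognition complex, had the smallest unadjusted p among all 56 genes. Its signal was 3525, 3069.6, 3320.1 and 3322 in hairpin vector arrays 1 to 4, 3903, 3504, 3639.8 and 3524 in tRNA vector arrays 1 to 4 and 4209, 3959.7, 3759 and 3766 in empty vector arrays 1 to 4. The means were 3309 ± 186, 3643 ± 183 and 3923 ± 212 (SD, n = 4 each) in the same order. All hairpin vector arrays lay below all empty vector arrays, and the tRNA vector arrays lay between, overlapping both. The log2 fold change with the hairpin vector against the empty vector was -0.25 ± 0.074 (SE, n = 4 each), a fold of 0.843 (95% interval 0.755 to 0.942), with an unadjusted limma p of 0.00509, an adjusted p of 1.00 and an exact permutation p of 0.0286, the smallest that 4 arrays against 4 allow. Between arrays of the same number it was -0.26, -0.37, -0.18 and -0.18. Against the tRNA vector the hairpin vector value was -0.14 ± 0.074, and the tRNA vector against the empty vector gave -0.11 ± 0.074. Another ORC5 probe set gave -0.21 ± 0.11 with the hairpin vector against the empty vector, and another, dim one gave 0.76 ± 0.48, so the probe sets did not all go the same way.

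GMNN encodes geminin, which binds CDT1 and blocks licensing after S phase begins. Its signal was 11864, 11161, 9863 and 10039.6 in hairpin vector arrays, 15483, 14770.3, 11896 and 11216 in tRNA vector arrays and 13040.4, 11414, 12476 and 10552 in empty vector arrays. The means were 10732 ± 949, 13342 ± 2100.4 and 11870.5 ± 1108 (SD). The tRNA vector arrays 1 and 2 were the highest of all 12, and the groups overlapped in every comparison. The log2 fold change with the hairpin vector against the tRNA vector was -0.30 ± 0.11, a fold of 0.810 (95% interval 0.688 to 0.952), with an unadjusted limma p of 0.0143, an adjusted p of 1.00 and an exact permutation p of 0.0571. The hairpin vector was lower in 4 of 4 same-number pairs, by log2 values of -0.38, -0.40, -0.27 and -0.16. Against the empty vector the values were -0.14 ± 0.11 for hairpin vector cells and 0.16 ± 0.11 for tRNA vector cells, on either side of 0.

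CDC6, the ATPase that joins ORC to load the helicase, had signals of 2831, 2160.3, 2322 and 2237 in hairpin vector arrays, 2762, 2387, 2330.1 and 2459 in tRNA vector arrays and 2789, 1820.0, 2237 and 1914 in empty vector arrays. Its log2 fold change was 0.20 ± 0.13 for tRNA vector cells and 0.14 ± 0.13 for hairpin vector cells, both relative to empty vector cells, with groups that overlapped. CDT1, which brings MCM2 to MCM7 to ORC, had -0.066 and -0.30 with an SE of 0.22, and its other probe set gave 0.10 and 0.26 with an SE of 0.15, the opposite sign in both. The brightest CDT1, ORC6 and RFC1 probe sets are of a design that can also bind other transcripts. Of the other ORC subunits ORC1, ORC2, ORC3, ORC4 and ORC6, the log2 fold changes in the 3 comparisons ranged from -0.11 (ORC1, tRNA vector against empty vector) to 0.17 (ORC4, hairpin vector against tRNA vector).

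The helicase and the factors that activate it formed the largest step, with 18 genes. Of these 13 had a log2 fold change above 0 with the tRNA vector against the empty vector, 10 with the hairpin vector against the empty vector and 6 with the hairpin vector against the tRNA vector, and the medians were 0.068, 0.0073 and -0.031. Over the 22 other settings the counts ranged over 11 to 15, 7 to 12 and 5 to 8 of 18, and the count for hairpin against empty vector cells was lowest, 7, without the 3 arrays numbered 1. For the 6 subunits MCM2 to MCM7 the counts above 0 were 5, 4 and 1, and ranged over 4 to 6, 2 to 5 and 0 to 2. MCM7 had the smallest p of the step with the hairpin vector against the empty vector. Its signal was 9596, 9364, 9441 and 9079 in hairpin vector arrays, 8692, 9677, 9683 and 9699 in tRNA vector arrays and 8646, 7487, 10297 and 8723 in empty vector arrays. The empty vector arrays spanned both other groups, and the log2 fold change was 0.10 ± 0.086 for hairpin vector cells and 0.11 ± 0.086 for tRNA vector cells against them.

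WDHD1, also called AND-1, links polymerase alpha to the moving helicase. Its signal was 1031, 1017, 1027 and 976 in hairpin vector arrays, 918, 879, 731 and 934 in tRNA vector arrays and 989.7, 917, 1007 and 1101 in empty vector arrays. The means were 1013 ± 25.3, 866 ± 92.4 and 1004 ± 75.7 (SD). Every hairpin vector array lay above every tRNA vector array, with tRNA vector array 3 the lowest of the 12, and the empty vector arrays overlapped both groups. The log2 fold change with the hairpin vector against the tRNA vector was 0.23 ± 0.10, a fold of 1.17 (95% interval 1.01 to 1.37), with an unadjusted limma p of 0.0408, an adjusted p of 1.00 and an exact permutation p of 0.0286. Its other probe sets gave 0.14 ± 0.11 and 0.48 ± 0.25 in that comparison. The tRNA vector against the empty vector gave -0.22 ± 0.10 and the hairpin vector against the empty vector 0.016 ± 0.10.

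Groups of arrays without overlap were few. They were found for 0 of 56 genes with the tRNA vector against the empty vector, against 2.94% of tested genes. For hairpin against empty vector cells they were found for 2 (ORC5 lower and POLD1 higher), against 2.33%. For hairpin against tRNA vector cells they were found for 3 (WDHD1 higher, POLE2 and RNASEH2A lower), against 3.24%. The 6 genes that passed an unadjusted p of 0.05 or had groups that did not overlap are those in the plot of signals per array.

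**Figure D2:**
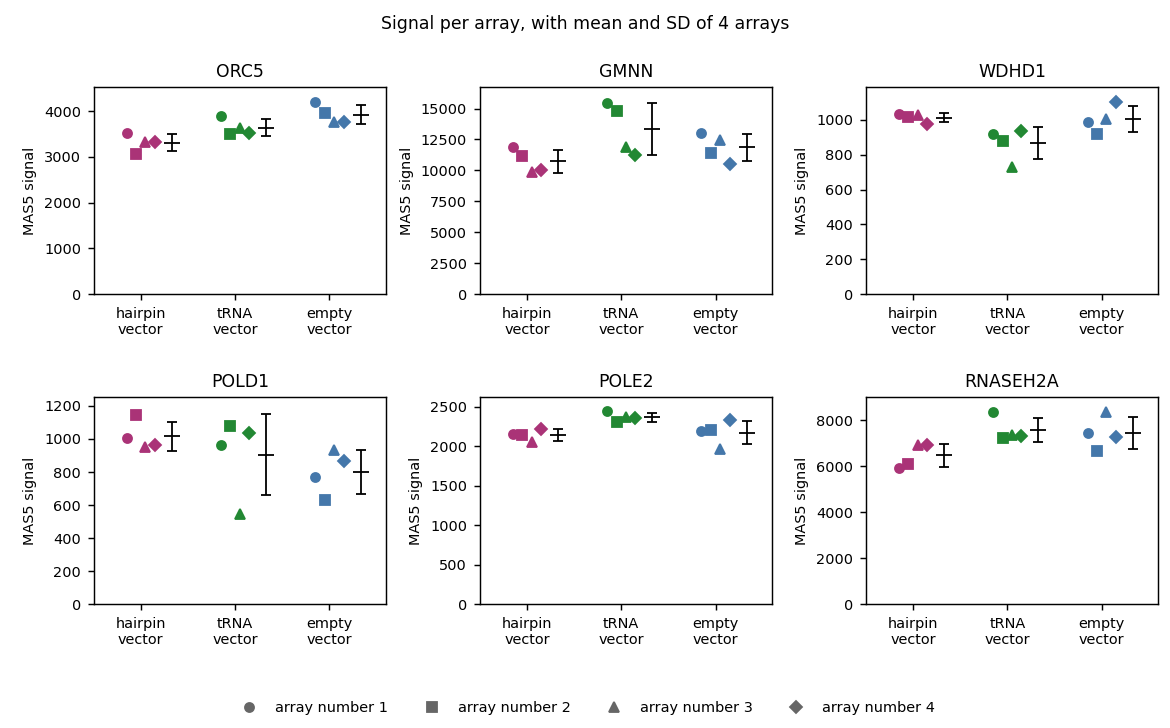
MAS5 signal (vertical axis, from 0) of 6 replication genes on each of the 12 arrays, grouped as hairpin, tRNA and empty vector, with marker shapes for the array number, and with the mean and SD of 4 arrays to the right of each group. ORC5 hairpin vector arrays lie below the empty vector arrays and WDHD1 hairpin vector arrays above the tRNA vector arrays, while for POLD1 a single tRNA vector array at 546 widens the spread.

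None of the 11 genes of the step beside WDHD1 and MCM2 to MCM7 passed an unadjusted p of 0.05 in any comparison. The 4 GINS subunits GINS1 to GINS4, which complete the active helicase with CDC45, had positive log2 fold changes with the tRNA vector against the empty vector in 4 of 4 genes (0.013, 0.094, 0.079 and 0.13), or in 3 of 4 after quantile normalization, and positive ones in 1 of 4 with the hairpin vector against the tRNA vector (0.027, -0.13, -0.13 and -0.24). GINS4 had the lowest value of the step there, with an SE of 0.23 and a lower hairpin vector signal in 4 of 4 same-number pairs, and its signal was 262, 265, 166 and 177 in hairpin vector arrays, 317, 271, 219 and 212 in tRNA vector arrays and 308, 207, 235 and 187 in empty vector arrays. The groups overlapped, and its unadjusted limma p was 0.301 in that comparison. Its other probe sets gave 0.040, 0.23 and 0.042 there, on the other side of 0. The other GINS3 probe set gave 0.059, and the other GINS2 probe sets gave -0.098 and 0.82. CDC45 itself gave 0.10 ± 0.079 for tRNA vector cells and -0.032 ± 0.079 for hairpin vector cells, relative to empty vector cells. Hairpin against tRNA vector cells gave -0.13 ± 0.079 for CDC45, lower in 4 of 4 same-number pairs, with an unadjusted limma p of 0.112. The activating kinase CDC7 and its partner DBF4 gave -0.062 and -0.0035 in the tRNA comparison with empty vector cells, and -0.040 and 0.050 in the hairpin comparison with them. The initiation factors MCM10, RECQL4, TICRR (treslin) and DONSON ranged from -0.044 to 0.080 with the hairpin vector against the empty vector.

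The step of polymerases and primase held 12 genes, with medians of 0.11, 0.029 and -0.034 in the 3 comparisons and 10, 9 and 5 genes above 0. Over the other settings these counts ranged over 9 to 11, 4 to 10 and 3 to 6 of 12. For hairpin against empty vector cells the count was 4 without empty vector array 3 and 7 without the 3 arrays numbered 1, and for hairpin against tRNA vector cells it was 3 without tRNA vector array 3. Polymerase epsilon, the main polymerase of the leading strand, has the subunits POLE, POLE2, POLE3 and POLE4. All 4 had positive log2 fold changes with the tRNA vector against the empty vector (0.093, 0.13, 0.25 and 0.16), and all 4 had negative ones with the hairpin vector against the tRNA vector (-0.14, -0.14, -0.24 and -0.14). In each of the 4 genes the tRNA vector was above the empty vector in all 4 same-number pairs, which held for 9 of the 56 genes and for 8.01% of tested genes. Both of these comparisons use the tRNA vector arrays, so they are not independent of each other. With the hairpin vector against the empty vector 2 of the 4 were above 0, with a median of -0.0069. Polymerase delta also had 4 of 4 values above 0 with the tRNA vector against the empty vector. None of these values passed the adjusted test.

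POLE2, a non-catalytic subunit of polymerase epsilon, had signals of 2163, 2143, 2049.9 and 2220.2 in hairpin vector arrays, 2448, 2305, 2369.8 and 2355 in tRNA vector arrays and 2191, 2206, 1971 and 2330.5 in empty vector arrays. The means were 2144 ± 70.7, 2369 ± 59.3 and 2175 ± 149 (SD, n = 4 each) in the same order. All tRNA vector arrays lay above all hairpin vector arrays, and the empty vector arrays overlapped both. The log2 fold change was -0.14 ± 0.076 with the hairpin vector against the tRNA vector, with an unadjusted limma p of 0.0784 and an exact permutation p of 0.0286, and for tRNA vector against empty vector cells it was 0.13 ± 0.076 (exact permutation p = 0.0571). Both adjusted values were 1.00.

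POLD1, the catalytic subunit of polymerase delta, the polymerase of the lagging strand, had signals of 1007, 1143, 952 and 962 in hairpin vector arrays, 961, 1077, 546 and 1039 in tRNA vector arrays and 768, 632, 935 and 869.6 in empty vector arrays. The means were 1016 ± 87.8, 906 ± 244 and 801 ± 132 (SD). The hairpin vector arrays all lay above the empty vector arrays. Array 3 of the tRNA vector lay below all other arrays. The log2 fold change with the hairpin vector against the empty vector was 0.35 ± 0.19, a fold of 1.28 (95% interval 0.961 to 1.70), with an unadjusted limma p of 0.0858, an adjusted p of 1.00 and an exact permutation p of 0.0286. Between same-number arrays it was 0.39, 0.85, 0.025 and 0.15, so the pairs differed widely in size. The hairpin vector against the tRNA vector gave 0.21 ± 0.19, which was -0.016 without tRNA vector array 3. POLD2, POLD3 and POLD4, the other subunits, gave 0.089, 0.037 and 0.81 with the hairpin vector against the empty vector, with SEs of 0.11, 0.12 and 0.52.

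Polymerase alpha and primase, which make the RNA and DNA primers, hold 4 of the 12 genes. The log2 fold changes of POLA1, POLA2 and PRIM1 lay between -0.034 and 0.086 in the 3 comparisons. PRIM2, the large primase subunit, had -0.27 ± 0.18 with the tRNA vector against the empty vector and 0.31 ± 0.18 with the hairpin vector against the tRNA vector, with signals of 1137, 759, 825 and 712 in hairpin vector arrays, 652, 618, 572 and 928 in tRNA vector arrays and 966, 707, 746 and 888 in empty vector arrays. Arrays 1 of the hairpin and empty vectors were the highest, and the groups overlapped. A further 4 probe sets annotated to PRIM2 together with another gene were not used.

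The clamp and its loader, 6 genes, had 4, 4 and 3 log2 fold changes above 0, which over the other settings ranged over 2 to 5, 3 to 5 and 2 to 4. The 2 was for tRNA against empty vector cells without tRNA vector array 1. PCNA, the clamp, had signals of 9421, 9661, 10973 and 9465 in hairpin vector arrays, 10863, 9796, 8212 and 9379 in tRNA vector arrays and 9483, 8888, 9437 and 9617 in empty vector arrays. The groups overlapped, and relative to empty vector arrays the log2 fold change was 0.025 ± 0.085 for tRNA vector cells and 0.076 ± 0.085 for hairpin vector cells. RFC2, a loader subunit, had signals of 5333, 4275, 4627 and 4687 in hairpin vector arrays, 5208, 4093, 4352 and 4856 in tRNA vector arrays and 4276, 4006, 4504 and 4401 in empty vector arrays, and log2 fold changes of 0.10 ± 0.092 for tRNA vector cells and 0.14 ± 0.092 for hairpin vector cells, relative to empty vector cells. RFC5, another subunit, had 5456, 4955, 5021 and 4556 in hairpin vector arrays, 4949, 4619, 4039 and 4868 in tRNA vector arrays and 4983, 4853, 4295 and 4352 in empty vector arrays. Its hairpin vector values gave 0.11 ± 0.088 against the empty vector and 0.12 ± 0.088 against the tRNA vector, and the groups of both RFC2 and RFC5 overlapped. RFC1, RFC3 and RFC4 lay between -0.11 and 0.026 in the 3 comparisons.

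Okazaki fragment processing held 7 genes, of which 5 had a log2 fold change above 0 with the tRNA vector against the empty vector and 0 had one with the hairpin vector against either other vector. The medians were 0.013, -0.065 and -0.066. These counts moved most with the arrays left out. Over 22 other settings the count for tRNA against empty vector cells ranged from 1 (without tRNA vector array 3) to 6 of 7 (without tRNA vector array 2). It ranged from 0 to 2 with the hairpin vector against the empty vector and from 0 to 3 with the hairpin vector against the tRNA vector. The 2 and the 3 arose only with 1 array left out. Quantile normalization gave 4, 0 and 0 in the 3 comparisons. RNASEH2A is the catalytic subunit of RNase H2, which removes RNA from DNA. Its signal was 5939, 6112, 6906 and 6903 in hairpin vector arrays, 8356, 7242, 7355 and 7317 in tRNA vector arrays and 7452, 6659, 8346 and 7265 in empty vector arrays. The means were 6465 ± 512, 7567 ± 528 and 7430.3 ± 698 (SD). All hairpin vector arrays lay below all tRNA vector arrays, and empty vector array 2 lay among the hairpin vector arrays. The hairpin vector against the tRNA vector gave -0.23 ± 0.086, a fold of 0.854 (95% interval 0.752 to 0.970), with an unadjusted limma p of 0.0185 and an exact permutation p of 0.0286. Hairpin against empty vector cells gave -0.20 ± 0.086, with an unadjusted limma p of 0.0353 and an exact permutation p of 0.0857. Both adjusted p were 1.00, and the hairpin vector was lower in 4 of 4 same-number pairs in both comparisons. Without the 3 arrays numbered 1 the value against the tRNA vector was -0.14.

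RNASEH2C, a non-catalytic subunit of the same enzyme, had signals of 2089, 1883, 2332 and 2146 in hairpin vector arrays, 2213, 1779, 2405 and 2089 in tRNA vector arrays and 2303, 2174, 2112 and 2285 in empty vector arrays. The groups overlapped, and relative to empty vector arrays the log2 fold change was -0.072 ± 0.10 for tRNA vector cells and -0.074 ± 0.10 for hairpin vector cells. RNASEH2B gave -0.14 ± 0.21 with the hairpin vector against the empty vector. The flap endonuclease FEN1, the nuclease and helicase DNA2, RNase H1 (RNASEH1) and DNA ligase 1 (LIG1) lay between -0.081 and 0.042 in the 3 comparisons.

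The topoisomerases relieve the twist ahead of forks and separate finished chromosomes. TOP1 had signals of 5356, 6604, 6788 and 6641 in hairpin vector arrays, 6066, 7272, 7199 and 6843 in tRNA vector arrays and 5808, 6789.7, 6859 and 6681 in empty vector arrays. Array 1 was the lowest in each group, and relative to empty vector arrays the log2 fold change was 0.066 ± 0.093 for tRNA vector cells and -0.045 ± 0.093 for hairpin vector cells. TOP2A, which peaks in dividing cells, had 6397, 5018, 5007 and 5107 in hairpin vector arrays, 5450.1, 3721, 4687 and 5158 in tRNA vector arrays and 5126, 4552, 4642 and 5059 in empty vector arrays. Its hairpin vector values overlapped both other groups, with log2 fold changes of 0.15 ± 0.12 against the empty vector and 0.19 ± 0.12 against the tRNA vector. Another TOP2A probe set gave -0.31 and -0.20 with an SE of 0.38, on the other side of 0. TOP2B gave -0.061 for tRNA vector cells and 0.00065 for hairpin vector cells, relative to empty vector cells. SLBP, which binds the stem-loop of histone mRNAs made during replication, had signals of 5437, 4541, 4621 and 4623 in hairpin vector arrays, 5249, 4958, 4583 and 4615 in tRNA vector arrays and 5207, 4529.7, 4294 and 4546 in empty vector arrays. Relative to empty vector arrays its log2 fold change was 0.064 ± 0.086 for tRNA vector cells and 0.049 ± 0.086 for hairpin vector cells, with groups that overlapped.

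Genes with the E2F-type letters were set beside those without. With the tRNA vector against the empty vector, 15 of the 20 genes with the motif and 15 of the 29 without it had a log2 fold change above 0, with medians of 0.056 and 0.00040. With the hairpin vector against the empty vector the counts were 7 of 20 and 18 of 29, with medians of -0.0042 and 0.016. With the hairpin vector against the tRNA vector they were 6 of 20 and 13 of 29, with medians of -0.048 and -0.015. The differences between genes with and without the motif were not tested.

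Where genes have several probe sets, these often disagreed in sign. Among the 29 genes with more than 1 tested, 43 probe sets other than the brightest were compared with it. They had its sign in 25 of 43 cases with the tRNA vector against the empty vector, in 28 with the hairpin vector against the empty vector and in 25 with the hairpin vector against the tRNA vector. In each comparison all probe sets of the gene had 1 sign for 16 of the 29 genes.

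Like most tested genes, most replication genes differed more by replicate number than by vector. The labels number the 4 arrays of each vector, and a limma F test of the number, with the vector as a term, was added after the arrays numbered 1 had been seen to stand apart. It called 18 of the 56 replication genes (32.1%), against 14.0% of tested genes. These counts rest on the brightest probe sets. Of the 99 probe sets of replication genes the test called 28. The share over all tested probe sets is not given here, so the 28 are not set against a background. Some of the 28 belong to genes not among the 18. An MCM4 probe set was higher on the arrays numbered 1 by 0.53 (limma F test, adjusted p = 0.000874), where the brightest gave -0.10. An MCM10 probe set was higher by 0.41 (adjusted p = 0.00509), where the brightest gave 0.063. The means of the 4 numbers spanned a median of 0.25 on the log2 scale, where the means of the 3 vectors spanned 0.11, and for all tested genes these were 0.35 and 0.18. The span over numbers was the larger in 48 of 56 genes (85.7%), and in 80.6% of tested genes. A span of 4 means of 3 arrays is somewhat larger than one of 3 means of 4 arrays even without a difference. Without the 3 arrays numbered 1 the test called 0 of the 56 replication genes and 2.97% of tested genes. Without hairpin vector array 1 alone it called 5 of 56, against 7.81% of tested genes, and without tRNA vector array 1 alone 8, against 8.97%. Without empty vector array 1 alone it called 14, against 11.9%. The Bacillus signal and the GAPDH ratio also differed on the arrays numbered 1, and the labels call the numbers only biological replicates. Parts of culture, RNA quality and labelling in these differences cannot be told apart.

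**Figure D3:**
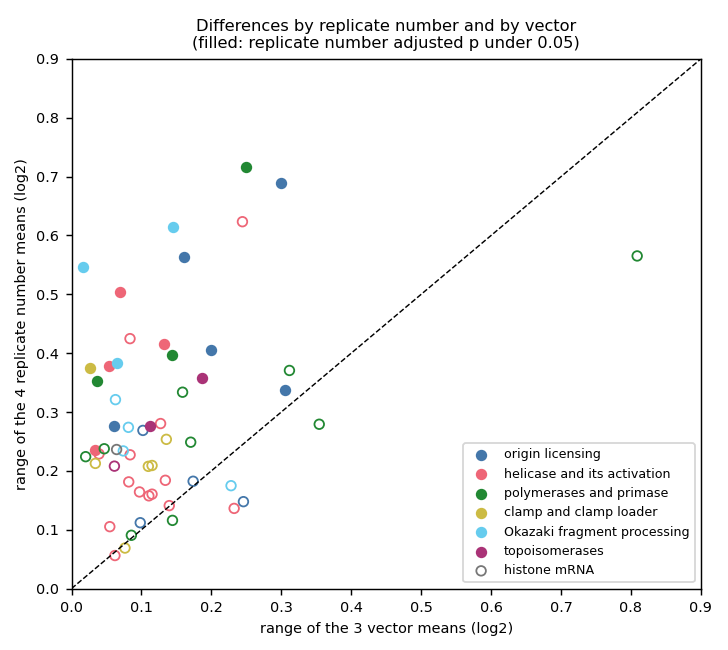
Span of the 4 replicate number means (vertical axis, log2) against the span of the 3 vector means (horizontal axis, log2) for the 56 replication genes, coloured by step, with filled points for an adjusted p under 0.05 by number and a dashed line where both are equal. There are 48 points above the line, and POLD4 lies farthest to the right.

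Licensing genes were high on the arrays numbered 1. Their mean on those arrays was the highest of the 4 numbers for 8 of 9 licensing genes, against 36.2% of tested genes, and the median of their excess over the other numbers was 0.23 on the log2 scale. The test called 5 of the 9. ORC1, the largest ORC subunit, had signals of 1612, 1368, 1128 and 1129 in hairpin vector arrays, 1343, 1323, 993 and 1019 in tRNA vector arrays and 1814, 1115, 1086 and 1109 in empty vector arrays. CDT1 had 6413, 2598, 3574 and 3544 in hairpin vector arrays, 5755, 3668, 3928 and 4865 in tRNA vector arrays and 5436, 5031, 4142 and 4273 in empty vector arrays. In both genes array 1 was the highest of each group. The adjusted p of the number was 0.00713 for ORC1, 0.0193 for CDT1, 0.0171 for CDC6, 0.0295 for GMNN and 0.0492 for ORC3, while the other CDT1 probe set gave 0.52.

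Genes of other steps went both ways on those arrays. POLE3 had the smallest adjusted p among the brightest probe sets, 0.000331, with signals of 4486, 3302, 2616 and 2969 in hairpin vector arrays, 5041, 4024, 3050.4 and 3662 in tRNA vector arrays and 4736, 2904, 3026 and 2729 in empty vector arrays, highest on array 1 in each group. RFC4 had geometric mean signals of 6728, 5766, 5186 and 5217 and RNASEH2B of 713, 485, 468 and 466 at numbers 1 to 4. LIG1 went the other way, with signals of 1098, 1048, 1405 and 1675 in hairpin vector arrays, 1057, 1244, 1421 and 1514 in tRNA vector arrays and 1000.0, 1099, 1744 and 1425 in empty vector arrays. In LIG1 arrays 1 and 2 lay below arrays 3 and 4 in each group, and the adjusted p was 0.00425. RECQL4, a helicase that helps to start replication, had geometric means of 686, 972, 952 and 961, and TOP1 of 5736, 6883, 6946 and 6721, both lowest at number 1. Of the 18 genes called, 12 were higher on the arrays numbered 1 than on the others and 6 were lower (MCM3, RECQL4, POLE, LIG1, RNASEH1 and TOP1). Of their 12 other tested probe sets, from 9 genes, 8 had the same direction and 4 passed the test, of which 2 had the direction of the brightest probe set (CDC6 and TOP1) and 2 the opposite one. Another TOP2A probe set was lower on the arrays numbered 1, by a log2 value of -1.26 (limma F test, adjusted p = 6.53e-05), where the brightest was higher by 0.25 (adjusted p = 0.0416). Another RNASEH1 probe set was higher by 1.80 (adjusted p = 0.00201), where the brightest gave -0.30 (adjusted p = 0.0298). The direction of TOP2A and RNASEH1 by number therefore differs between their probe sets. PCNA had geometric means of 9901, 9439.6, 9474 and 9486 and an adjusted p of 0.911, and CDC7 had 5111, 5171, 5019 and 5218 and 0.912.

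**Figure D4:**
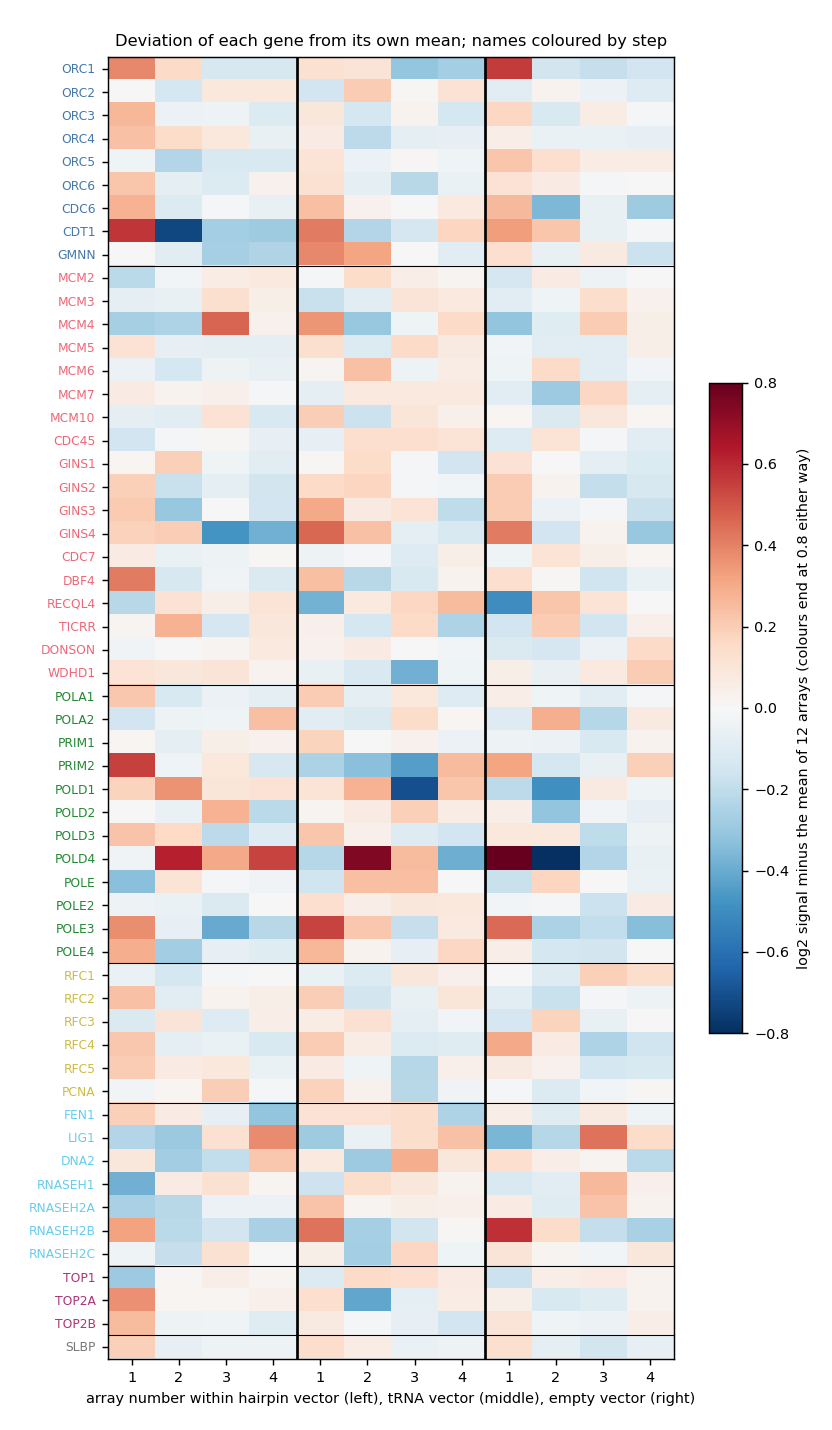
Log2 signal of each replication gene (rows, by step) on each of the 12 arrays (columns, numbers 1 to 4 within the hairpin, tRNA and empty vector), minus the mean of the gene over all arrays, in red above and blue below it. The first column of each group is red for most licensing genes and blue for TOP1 and RECQL4.

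Replication also needs genes outside the 56, and 38 of them were looked at as an accessory list, of which 36 were tested. With the tRNA vector against the empty vector 26 of 36 had a log2 fold change above 0, with the hairpin vector against the empty vector 18, and with the hairpin vector against the tRNA vector 11, against 50.7%, 51.2% and 50.6% of tested genes, with medians of 0.038, -0.00059 and -0.033. The adjusted test called 0 in each comparison (0%). At an unadjusted p under 0.05 there were 0, 2 (both higher) and 2 (1 higher and 1 lower) of 36, against 4.26%, 2.74% and 4.56% of tested genes. CDC25A, the phosphatase that activates CDK2, had signals of 9272, 8962, 9928 and 9983 in hairpin vector arrays, 8804, 7222, 8434 and 8495 in tRNA vector arrays and 8517, 6589, 8842 and 8427 in empty vector arrays. All hairpin vector arrays lay above all others, with log2 fold changes of 0.24 ± 0.096 against the empty vector and 0.21 ± 0.096 against the tRNA vector, unadjusted limma p of 0.023 and 0.0428 and exact permutation p of 0.0286 in both. DTYMK, which makes the thymidine diphosphate needed for DNA, gave 0.19 ± 0.071 with the hairpin vector against the empty vector (exact permutation p = 0.0286). MCMBP, a binding partner of the MCM proteins, gave -0.25 ± 0.10 with the hairpin vector against the tRNA vector (exact permutation p = 0.0571). With the tRNA vector against the empty vector TONSL, a fork repair protein, gave 0.45 ± 0.23 (exact permutation p = 0.114) and NASP, a histone chaperone, 0.11 ± 0.060 (exact permutation p = 0.0286). Each had an adjusted p of 1.00.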

How the data were processed

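The 12 arrays were analysed from the deposited table of MAS5 signal intensities, 1 column per array on a linear scale. The authors made these intensity values with MAS5, per the submitters' processing notes, which give no version, and every deposited column had a 2% trimmed mean of 500.1, the mark of a common scaling. Genome build and annotation version of the array are not given in the sources used here. Gene symbols came from the platform annotation (41097 probe sets with 1 symbol, 1801 with several, 11777 not listed with a gene), and a look-up by Entrez identifier in RefSeq changed 0 of them and lacked 54.

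Signals were taken to log2. Left out were 62 control probe sets and 21845 whose mean on the log2 scale fell below the 40th percentile (43.3 as a geometric mean), which left 32768 probe sets. Of these, 26675 had 1 symbol, and they stood for 13952 named genes. A limma 3.58.1 model of the 3 group means (R 4.3.3; lmFit, eBayes with trend) used all 12 arrays, two-sided, adjusted by Benjamini-Hochberg over all tested probe sets at 0.05. The script was tested on simulated data. Exact permutation tests over the 8 arrays of a comparison are two-sided, and cannot go below 0.0286. The labels call the replicates biological, and p-values measure the spread between these samples.

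Arrays were given in full for genes with an unadjusted p under 0.05, with groups that do not overlap, or with the smallest p of a step in a comparison. GINS4, PCNA, PRIM2, POLD4 and the genes given for the replicate number, some in full and some by range or geometric mean, were chosen after their values were seen. From the accessory list the 2 genes with the smallest p in each comparison were named. The members and lists were chosen with earlier results of these data known. Deviations from the group means were correlated between arrays of different vectors. For hairpin and empty vectors r was 0.11 to 0.33 at the same number and -0.23 to 0.15 at different numbers. For hairpin and tRNA vectors these ranges were 0.11 to 0.36 and -0.21 to 0.10. For tRNA and empty vectors they were 0.099 to 0.28 and -0.19 to 0.12. The highest r was between the arrays numbered 1 each time. The ranges overlapped where the empty vector was involved. There the arrays numbered 2 had r of 0.11 and 0.14 at the same number, and at most 0.020 with arrays of another number. Arrays numbered 3 and 4 had r of 0.097 to 0.15 across these 2 numbers. Pairing with the empty vector by number is therefore not clear between numbers 3 and 4. The numbers were nonetheless taken as pairs in the same-number differences. Alternatives were another test, normalization, offset, filters, array weights, blocks and arrays left out.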

Additional observations from a re-analysis of the deposited data

Results flagged for a closer look

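For the 14 genes given by the naming rule, the highest or lowest array of each vector group was compared with the other 3, and 7 of 42 groups held an array that lay far from them by Dixon's criterion, where chance gives about 1 in 20. In 6 of the 7 it was an array numbered 1. On tRNA vector array 1 the MCM7 signal was 8692, with the others at 9677 to 9699, and the RNASEH2A signal was 8356, with the others at 7242 to 7355. On hairpin vector array 1 the SLBP signal was 5437 (others 4541 to 4623), the TOP2A signal 6397 (others 5007 to 5107) and the TOP1 signal 5356 (others 6604 to 6788). On empty vector array 1 the TOP1 signal was 5808 (others 6681 to 6859). The seventh was POLD1 on tRNA vector array 3, at 546 with the others at 961 to 1077. MCM7 and TOP1 lay below the other arrays there, and RNASEH2A, SLBP and TOP2A above them. The part of labelling or RNA quality in these values was not tested.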

How the results depend on the processing

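The count of 0 called probe sets of replication genes held in all 22 other settings and all 3 comparisons. Over all probe sets, the count was 4 (tRNA against empty vector), 3 (hairpin against empty vector) and 8 (hairpin against tRNA vector) with the Bacillus level as a batch block. For the hairpin against the tRNA vector it was 6 with the replicate block, 1 with array weights and 1 without the 3 arrays numbered 1 (a setting added after the data were seen). The replicate block gave 0 in both comparisons with the empty vector and changed no other call. The sign counts ranged over 31 to 41, 24 to 36 and 20 to 26 of 56 in the same order of comparisons, and the medians over 0.0093 to 0.054, -0.020 to 0.032 and -0.039 to -0.0087, so the median of the hairpin against the empty vector took either sign. The count of replication genes called by replicate number was 0 without the 3 arrays numbered 1, against 2.97% of tested genes. It was 15 of 56 after quantile normalization, against 13.4%, and 5 to 19 with 1 array left out, against 7.81% to 14.8%. The values of the 14 named genes in 3 comparisons passed the adjusted threshold in 0 of 924 cases (smallest adjusted p 0.192, GMNN, hairpin against tRNA vector), and 13 of the 42 changed sign in at least 1 setting. An unadjusted p under 0.05 was kept in 22 of 22 settings by ORC5 (hairpin against empty vector), in 20 by GMNN, 19 by RNASEH2A and 13 by WDHD1 (hairpin against tRNA vector), and in 15 by RNASEH2A (hairpin against empty vector). Such counts are not independent support. The filters, the blocks, the plain test and leaving out an array of the third vector do not change the fold change of a comparison. Among the brightest probe sets of the 56 genes the widest SE was 0.52, for POLD4.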

Other observations

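Pairs of licensing genes had a higher median correlation across arrays than pairs of all replication genes, a difference that was not tested. As a description over 12 arrays, after each group's mean was removed, the median Pearson r over the 36 pairs of licensing genes was 0.58, with a range of -0.70 to 0.85. It was 0.044 over the 1540 pairs of all 56 genes and 0.0059 over the pairs of all tested genes. For the 6 pairs of GINS subunits the median was 0.56, and for the 15 pairs of MCM2 to MCM7 it was -0.021. The pairs share the same 12 arrays and their labelling, so the values are not independent. On the arrays numbered 1 the median deviation of the 9 licensing genes from their own means was 0.23, 0.12 and 0.16 for the hairpin, tRNA and empty vectors, while the 18 helicase genes had 0.019, 0.031 and -0.035.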
